A study of Arabidopsis thaliana with 15 samples.

Results

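Day 2 of long days was compared with short days in the hypocotyl of Arabidopsis thaliana (ecotype Col-0). The 3 arrays of day 2 were set against the 3 arrays of day 0, which are 6 of the 15 arrays of the series. The description covers the 16548 genes that are alone on at least 1 probe set, out of 38408 probe sets on the array. All plants grew at 22 °C in short days of 8 h light for 6 weeks. Day 0 hypocotyls come from plants still in those short days, and day 2 hypocotyls from plants that had spent 2 days in long days of 16 h light. The labels name no mutation, transgene or chemical treatment in any group. Every array holds RNA of 1 pool of 8 hypocotyls, so n = 3 pools per day and differences between single plants are averaged out. The labels name the purpose of the switch, which is to bring the plants to flower, and the series title names its subject, abscisic acid (ABA) and the differentiation of xylem fibres.

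The hypocotyl is the stem below the seed leaves. Once it has stopped elongating it thickens by secondary growth, in which a ring of dividing cells, the cambium, lays down xylem inwards and phloem outwards. In Arabidopsis the xylem of the hypocotyl first forms vessels and parenchyma, and it turns to making fibres with thick walls of cellulose, xylan and lignin after the plant has been induced to flower. Long days are sensed in the leaves through the circadian clock, and they also lengthen the daily period in which sugars are made and starch is stored. ABA is the hormone of drought and cold responses, and its marker genes encode dehydrins and other protective proteins.

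Values are array intensities normalised by the submitters, on a linear scale. They were compared as log2 values with limma, and a gene was called at a Benjamini-Hochberg adjusted p below 0.05 over all probe sets. Each ± value is the standard error (SE) of the log2 difference between the means of 3 and 3 pools, folds are ratios of geometric means, and intensities of different genes are not comparable because each probe set has its own brightness. A number in brackets after a gene alone is its log2 difference. One after a refit that ended or gave a call is the adjusted p of that refit. The refit with a block for the replicate number is not listed beside single genes and is given at the end. The 6 arrays had median intensities of 84.7 to 90.6. Pearson correlations across probe sets, whose values are not independent replicates, were 0.983 to 0.990 within a day over the series and 0.975 to 0.980 between day 0 and day 2. Every pool was below 24.2, the lowest 25th percentile of these arrays, on day 2 for COR15B, bZIP48, AT3G62950 and AT4G15690, on day 0 for SAG29, AT5G66816 and AT3G50610, and on both days for LCR22, ROXY2 and AT5G18600. Their changes rest on dim values. Genes with geometric means below 24.2 on both days also include SWEET10, SWEET11, SWEET14, AGL71, AGL72, AGL19, SNZ, GH3.4, LBD29, IAA20, IAA30, RR16, AT1G69570 and XTH20. None of these was called, and a change in such dim genes is hard to detect. The hour of harvest and the processing batch are not given in the labels, and their part in any difference was not tested. The tissue label could be checked only in part. Of the listed markers, 4 of 21 xylan genes and 4 of 24 cambium and vascular patterning genes were measured, with no measured member below an intensity of 29.3. The lists for secondary wall cellulose, xylem cell death, phloem, periderm, flower organs and seed storage had 0 members on a 1-gene probe set and are not analysed here. The summed intensity of the 4 xylan genes was 2336 to 2469 in the day 0 pools and 3612 to 3757 in the day 2 pools. For 5 of 31 nuclear photosynthesis genes, the marker of green tissue, it was 2453 to 2758 and 2204 to 2441, and for 2 of 5 root hair genes 36.9 to 45.1 and 38.7 to 50.1. The part that a changed share of cell types has in any result was not tested.

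After 2 long days, single genes of starch synthesis, xylan synthesis, cell wall loosening and flowering were higher, SWEET sugar transporters changed in both directions, and dehydrins, cold-regulated genes, GI and most changed members of a glutaredoxin list were lower. The test called 7832 of all probe sets (20.4%). Of the 16548 genes, 3330 (20.1%) were called, 1786 higher (10.8%) and 1544 lower (9.33%). Counts of called list and family members below are to be set beside these shares. With each array centred on its own median the higher share of the called genes was 68.0% against 53.6% as deposited. Most changes were small, with a median of 1.35-fold among the genes called higher and 1.40-fold among those called lower. A call of at least 2-fold was made for 120 genes higher (0.725%) and 167 lower (1.01%), and a difference of at least 4-fold for 11 and 31 of these. The 3 day 2 pools lay wholly above or below the 3 day 0 pools for 6013 genes (36.3%), and 3292 of these were called (19.9% of all genes). Nearly all of the 3330 called genes thus lacked overlap, and the largest changes were named only if they lacked it. Where lack of overlap is given below it describes the pools and adds no support to a call. Calls depended on brightness: they reached 3.26%, 10.7%, 29.1% and 37.5% of genes in 4 equal classes from the dimmest to the brightest mean intensity. Only 1896 genes carry a symbol or a name in the tables used here, and 259 of these were called higher (13.7%) and 205 lower (10.8%). Fewer cells of a type and less RNA per cell cannot be told apart in pooled tissue, and this holds for every difference below.

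**Figure D1:**
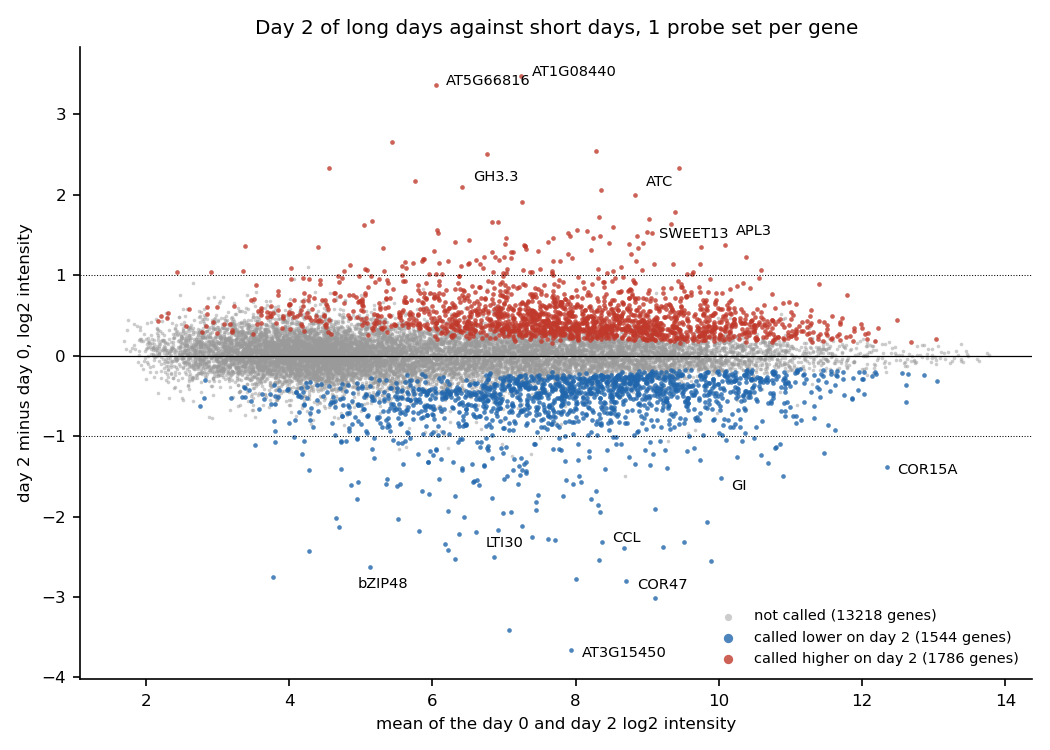
Each point is 1 of 16548 genes, with the mean of its day 0 and day 2 log2 intensity on the x axis and the day 2 minus day 0 difference in log2 intensity on the y axis. Red marks the 1786 genes called higher, blue the 1544 called lower and grey the 13218 not called; dotted lines mark 2-fold, and the differences run from −3.66 for AT3G15450 to 3.48 for AT1G08440.

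Both measured subunit genes of the first committed enzyme of starch synthesis rose. APL4 (AT2G21590), a large subunit of ADP-glucose pyrophosphorylase, the enzyme that supplies the glucose donor for starch, read 288, 266 and 348 in the day 0 pools and 845, 856 and 908 in the day 2 pools. APL3 (AT4G39210), another large subunit of this enzyme, read 667, 616 and 751 in the day 0 pools and 1546, 1719 and 2023 in the day 2 pools. For both genes every day 2 pool stood at more than 2 times the highest day 0 pool. APL4 was 2.91-fold higher (log2 1.54 ± 0.10, adjusted p = 1.72e-06) and APL3 2.59-fold higher (log2 1.37 ± 0.13, adjusted p = 2.37e-05). SBE2.2 (AT5G03650), a starch branching enzyme, read 868, 795 and 962 on day 0 and 1972, 2115 and 2024 on day 2, which was 2.33-fold higher (log2 1.22 ± 0.08, adjusted p = 1.60e-06), again with no overlap between the days. The third listed starch gene went the other way. DPE1 (AT5G64860), the plastid disproportionating enzyme that works on the breakdown products of starch, read 561, 575 and 638 on day 0 and 369.7, 403 and 388 on day 2 and fell 1.53-fold (log2 −0.61 ± 0.07, adjusted p = 9.42e-05). So of 14 listed starch genes 3 were measured, of which 2 rose and 1 fell, against 10.8% and 9.33% of all genes. Their median log2 difference was 1.37 against 0.02 over all genes. SBE2.2 is named by its small adjusted p and is not a member of that list.

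Transporters of the SWEET family, which move sugars across membranes down their gradient, split into rising and falling members. SWEET13 (AT5G50800), a plasma membrane sucrose transporter of the phloem loading clade, read 280.2, 252 and 342 on day 0 and 853, 952 and 1009 on day 2 and was 3.24-fold higher (log2 1.70 ± 0.14, adjusted p = 8.60e-06). SWEET4 (AT3G28007) read 25.3, 25.8 and 23.4 on day 0 and 55.0, 51.1 and 88.8 on day 2, 2.54-fold higher (log2 1.34 ± 0.23, adjusted p = 0.00131). SAG29 (AT5G13170), also called SWEET15, read 22.6, 18.2 and 19.3 on day 0 and 71.3, 38.7 and 94.5 on day 2, 3.20-fold higher (log2 1.68 ± 0.37, adjusted p = 0.00745). The day 2 pools of these dimmer genes were uneven, with replicate 3 highest for both, but none reached down to the day 0 pools. The vacuolar transporters moved in the opposite direction. SWEET16 (AT3G16690) read 152, 207 and 136 on day 0 and 70.4, 62.8 and 37.5 on day 2 and fell 2.96-fold (log2 −1.56 ± 0.28, adjusted p = 0.0018). SWEET17 (AT4G15920) fell 1.27-fold (log2 −0.35 ± 0.08, adjusted p = 0.011) and SWEET2 (AT3G14770) 1.67-fold (log2 −0.74 ± 0.17, adjusted p = 0.008), and for all of these every day 2 pool was below every day 0 pool. The list of sucrose cleavage, trehalose and sugar transport genes had 10 of 26 members measured, all of them SWEET genes. Of these 3 rose and 3 fell, against 10.8% and 9.33% of all genes, and 4 did not pass, with a median of 0.08. SWEET1 (log2 −0.63, adjusted p = 0.0813), SWEET11 (0.16), SWEET14 (0.14) and SWEET10 (0.03) were those that did not. SWEET1 was called lower in 1 of 11 refits.

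Among 3 measured members of a list of dark- and starvation-induced genes, 2 fell, against 9.33% of all genes. AT3G15450, which carries only a locus tag in the tables used here, read 809.5, 1046 and 790.1 on day 0 and 64.1, 68.2 and 75.1 on day 2. Its day 2 pools all lay far below the lowest day 0 pool, a fall of 12.7-fold (log2 −3.66 ± 0.18, adjusted p = 2.98e-07), the largest fall among the 16548 genes. AKINBETA1 (AT5G21170), a regulatory subunit of the energy-sensing kinase SnRK1, read 612, 693 and 616 on day 0 and 401, 421 and 453 on day 2 and fell 1.51-fold (log2 −0.59 ± 0.09, adjusted p = 0.000629). MCCB, a subunit of methylcrotonyl-CoA carboxylase in leucine breakdown, differed by log2 0.01. MGL (AT1G64660), methionine gamma-lyase, which breaks methionine down, was on none of the lists and read 181, 186 and 217 on day 0 and 518, 556 and 557 on day 2, 2.80-fold higher (log2 1.48 ± 0.08, adjusted p = 3.39e-07) with no overlap between the days.

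**Figure D2:**
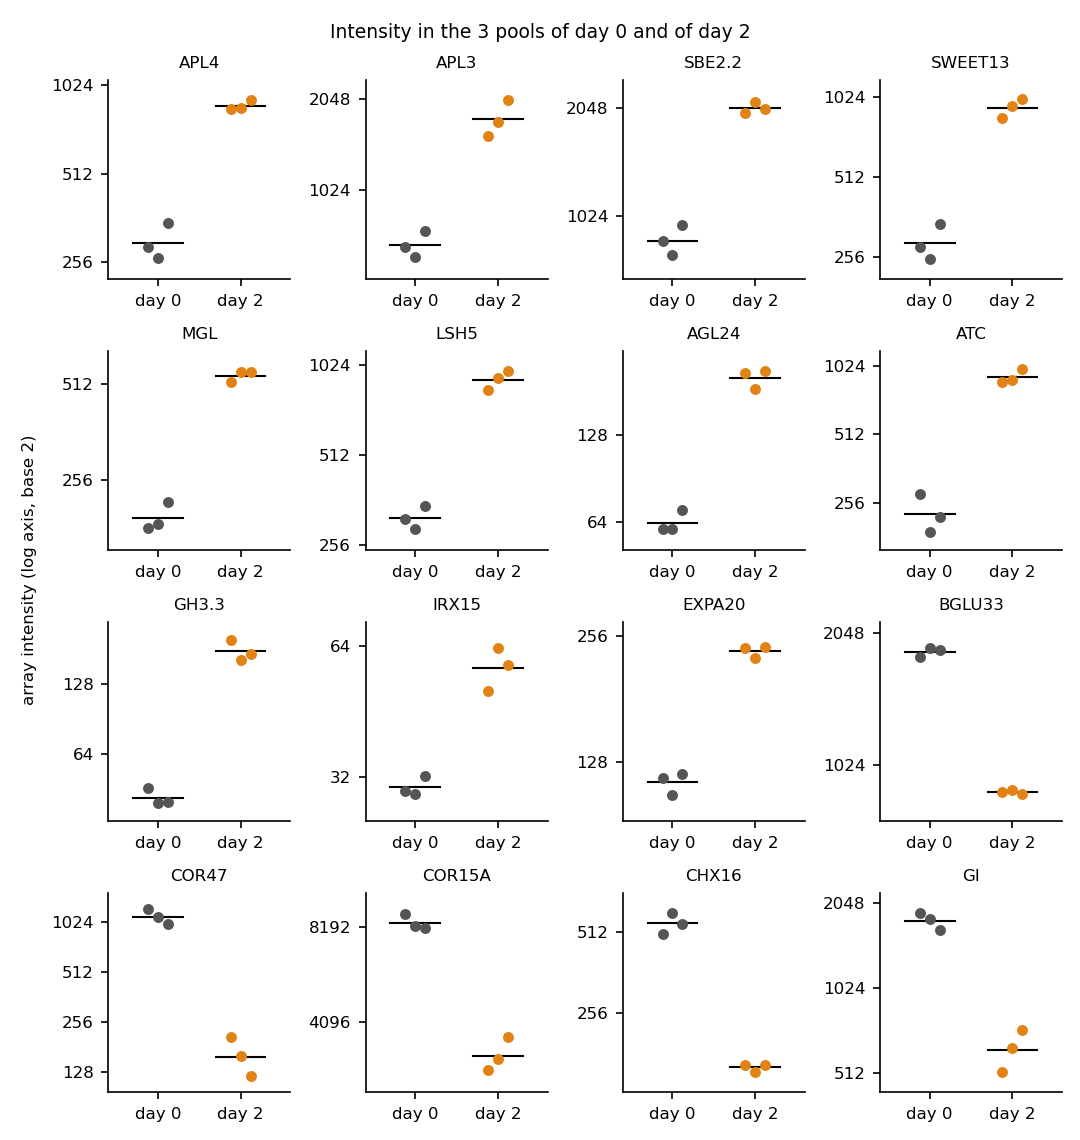
Array intensity on a log axis of base 2 for 16 genes, with 1 point per pool (grey for day 0, orange for day 2) and a line at the geometric mean of the 3 pools. In every panel the day 0 and day 2 points are apart, with day 2 higher from APL4 to EXPA20 and lower from BGLU33 to GI. EXPA20 is shown by the brightest of its several probe sets.

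Xylan is the main hemicellulose of xylem walls. Of the 4 measured xylan genes 3 rose, against 10.8% of all genes, at a median of 0.71. IRX15 (AT3G50220) and IRX15-L (AT5G67210) encode a pair of related proteins needed for normal xylan. IRX15 read 29.7, 29.3 and 32.1 on day 0 and 50.4, 63.4 and 57.8 on day 2 and was 1.88-fold higher (log2 0.91 ± 0.09, adjusted p = 2.96e-05). IRX15-L read 980.4, 1131 and 995 on day 0 and 1774, 1839 and 1925 on day 2 and was 1.79-fold higher (log2 0.84 ± 0.07, adjusted p = 6.77e-06). GUT2 (AT1G27440), also called IRX10, a xylan backbone synthase subunit, read 757, 671 and 703 on day 0 and 1005, 1127 and 1058 on day 2 and was 1.50-fold higher (log2 0.58 ± 0.08, adjusted p = 0.000257). Its close relative GUT1 (AT5G61840) read 645, 638 and 607 on day 0 and 783, 682 and 717 on day 2 with no overlap either, and its difference of log2 0.21 did not pass (adjusted p = 0.0516). GUT1 was called higher in 4 of 12 refits. For all 4 genes the lowest day 2 pool was above the highest day 0 pool, as it was for 3239 of all 16548 genes. The lignin list had 4 of 23 members measured, of which 1 rose and 1 fell, against 10.8% and 9.33% of all genes. HCT (AT5G48930), a transferase on the path to lignin monomers, read 2092, 1793 and 1945 on day 0 and 2347, 2360.4 and 2515 on day 2 and rose 1.24-fold (log2 0.31 ± 0.07, adjusted p = 0.00887), a call that ended in a fit of the 6 arrays alone (0.0675). AT5G66390, named peroxidase 72 in the tables, read 265, 223 and 207 on day 0 and 157, 143 and 157 on day 2 and fell 1.52-fold (log2 −0.60 ± 0.10, adjusted p = 0.00152), while AT5G64120 (0.23) and PRX52 (0.08) did not pass. Of 4 measured cambium and vascular patterning genes, PHV (AT1G30490), a class III HD-ZIP factor of vascular patterning, read 1242, 1240.2 and 1220.2 on day 0 and 1523, 1638 and 1598 on day 2 and rose 1.29-fold (log2 0.36 ± 0.06, adjusted p = 0.000678). The peptide genes CLE44 (−0.17) and CLE41 (−0.12), whose product keeps cambium cells dividing, and the receptor kinase gene MOL1 (0.09) did not pass. COB, which guides primary wall cellulose, was at −0.08.

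Of the single genes that act on the cell wall, some rose and others fell. Expansins are wall proteins that let cell walls extend. Of 8 measured (of 17 listed) 3 rose (37.5%) and none fell, against 10.8% and 9.33% of all genes, with a median of 0.34. EXPA20 (AT4G38210) read 117, 107 and 120.3 on day 0 and 239, 227 and 241 on day 2, 2.05-fold higher (log2 1.04 ± 0.07, adjusted p = 2.95e-06). These values of EXPA20 are from the brightest of its several probe sets. EXPA20 was called higher in all 13 refits, which include the mean over its probe sets, but its difference was as low as log2 0.69 among them. EXPA9 (AT5G02260) read 59.6, 66.5 and 56.4 on day 0 and 130.1, 135 and 136 on day 2, 2.20-fold higher (log2 1.14 ± 0.13, adjusted p = 9.11e-05). Both had close pools within each day, whereas the spread was wider for EXPA4 (AT2G39700), which read 492, 597 and 613 on day 0 and 654, 809 and 939 on day 2, 1.40-fold higher (log2 0.49 ± 0.13, adjusted p = 0.0192). The call of EXPA4 ended in a fit of the 6 arrays alone (0.108) and without day 0 replicate 1 or day 2 replicates 2 or 3 (0.0567 to 0.0773). The other 5 expansins lay between log2 0.04 and 0.39 and did not pass, but EXPA15 among them was called higher in 3 of 12 refits. Glycosyl hydrolases of family 9 include endoglucanases that act on cellulose, and of 19 measured 2 rose (10.5%) and 1 fell (5.26%), against 10.8% and 9.33% of all genes. GH9A3 (AT4G24260) read 79.4, 68.6 and 56.7 on day 0 and 230.4, 214 and 198 on day 2, 3.17-fold higher (log2 1.66 ± 0.14, adjusted p = 1.34e-05). GH9B8 (AT2G32990) read 639.6, 679.6 and 709 on day 0 and 1286, 1259 and 1373 on day 2, 1.93-fold higher (log2 0.95 ± 0.07, adjusted p = 3.46e-06). The member that fell was GH9B18 (AT4G39010; log2 −0.54 ± 0.12, adjusted p = 0.00824). Of 3 measured genes with a cellulose synthase-like name, CSLB03 (AT2G32530) fell (log2 −0.66 ± 0.14, adjusted p = 0.00519) and none rose. The call of CSLB03 ended in a fit of the 6 arrays alone (0.0634). PMEPCRF (AT5G53370), a pectin methylesterase gene, read 518, 512 and 428 on day 0 and 776, 699 and 745 on day 2 and was 1.53-fold higher (log2 0.61 ± 0.11, adjusted p = 0.00179). Of 5 measured xyloglucan endotransglucosylases on the written list (of 13) 0 passed the limma test and 2 had an unadjusted p below 0.05, XTH20 (log2 −0.61, adjusted p = 0.1) and XTH16 (log2 0.78, adjusted p = 0.0618). XTH16 was called higher in 5 of 12 refits. Among 11 genes with a xyloglucan name, the 5 of the list included, XTH32 rose (log2 0.20, adjusted p = 0.0468), a call that ended in a fit of the 6 arrays alone (0.111) and without any 1 of the 6 arrays (0.0505 to 0.149).

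Of 20 measured genes named as beta-glucosidases, those of the ER body list not counted, 5 fell (25%) and 1 rose (5%). Of all genes 9.33% fell and 10.8% rose. The falls among the 20 include a pair of genes whose enzymes release monolignols, the building units of lignin, from their glucosides. BGLU45 (AT1G61810) read 149, 168 and 123 on day 0 and 48.0, 48.0 and 35.5 on day 2 and fell 3.36-fold (log2 −1.75 ± 0.15, adjusted p = 1.03e-05). BGLU46 (AT1G61820), named here after its value was seen, read 602, 437 and 326 on day 0 and 272, 204 and 129.9 on day 2 and fell 2.28-fold (log2 −1.19 ± 0.28, adjusted p = 0.0106). Replicate 3 was the lowest of its day for both genes, and the days did not overlap. BGLU33 (AT2G32860) read 1802, 1891 and 1871 on day 0 and 889, 901 and 882 on day 2, with close pools on both days, and fell 2.08-fold (log2 −1.06 ± 0.10, adjusted p = 1.75e-05). BGLU47 (AT4G21760) fell 1.49-fold (log2 −0.57 ± 0.09, adjusted p = 0.00109), and BGLU42 (log2 −0.50, adjusted p = 0.00352) and BGLU40, the riser (0.36, adjusted p = 0.0135), complete the count, the last pair also named after their values were seen. The call of BGLU46 ended in a fit of the 6 arrays alone (0.0737) and that of BGLU40 in a fit of the 6 arrays alone (0.0587) and without day 0 replicates 1 or 2 or day 2 replicate 3 (0.0511 to 0.0555). The median over the 20 genes was −0.0020, near that of all genes.

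ABA- and cold-responsive genes held the largest fall among genes with a symbol, that of COR47. COR47 (AT1G20440), a dehydrin that protects membranes and proteins during water loss, read 1237, 1096 and 993 on day 0 and 208, 159 and 120.5 on day 2. LTI30 (AT3G50970), another dehydrin, read 457, 424 and 417 on day 0 and 84.2, 87.2 and 97.5 on day 2. COR15B (AT2G42530), a chloroplast protein of the cold response, read 53.4, 56.5 and 52.6 on day 0 and 13.0, 11.2 and 13.1 on day 2. In each case the highest day 2 pool was far below the lowest day 0 pool. The falls were 6.96-fold for COR47 (log2 −2.80 ± 0.19, adjusted p = 1.80e-06), 4.83-fold for LTI30 (log2 −2.27 ± 0.14, adjusted p = 8.36e-07) and 4.37-fold for COR15B (log2 −2.13 ± 0.10, adjusted p = 2.47e-07). COR15A (AT2G42540), the paralogue of COR15B, read 8951, 8238 and 8125 on day 0 and 2899, 3132 and 3676 on day 2 and fell 2.62-fold (log2 −1.39 ± 0.10, adjusted p = 4.11e-06). KIN2 (AT5G15970), a small cold-responsive protein gene, read 7807, 7881 and 7389.7 on day 0 and 4992, 5066 and 5385 on day 2 and fell 1.49-fold (log2 −0.58 ± 0.08, adjusted p = 0.000265). Its near copy KIN1 was at log2 −0.13 and did not pass (adjusted p = 0.705); cross-hybridisation between such pairs was not tested.

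In all, 8 of 26 listed ABA-responsive genes were measured, at a median of −0.98. Of these 5 fell (62.5%) and 1 rose (12.5%), against 9.33% and 10.8% of all genes. The one that rose was HIS1-3 (AT2G18050), a linker histone of drought, which read 20.9, 25.2 and 21.0 on day 0 and 36.4, 43.8 and 53.9 on day 2, 1.98-fold higher (log2 0.99 ± 0.27, adjusted p = 0.0236). Its call ended without day 0 replicates 1 or 3 or day 2 replicates 2 or 3 (0.058 to 0.0884). AT3G02480 (log2 −0.34) did not pass. The list for ABA synthesis, receptors and signalling had 0 of 37 members on a 1-gene probe set and is not analysed here. EEL (AT2G41070), a bZIP factor that acts on ABA-regulated seed genes, was on no list and read 106, 95.6 and 91.6 on day 0 and 252, 255 and 246 on day 2, 2.57-fold higher (log2 1.36 ± 0.12, adjusted p = 1.11e-05). Of 6 measured genes named as late embryogenesis abundant proteins or dehydrins in the tables, AT2G46140 rose (log2 0.51 ± 0.11, adjusted p = 0.00689) and AT2G44060 fell (log2 −0.20 ± 0.07, adjusted p = 0.0492). The latter call ended with each array centred on its median (0.182), in a fit of the 6 arrays alone (0.112) and without any 1 of the 6 arrays (0.0645 to 0.146).

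Clock and photoperiod genes were represented by 3 of 36 listed members, of which 2 fell, against 9.33% of all genes. GI (AT1G22770), a clock protein that times flowering to day length, read 1884, 1791 and 1636 on day 0 and 519, 627 and 726 on day 2. Day 2 replicate 1 was lowest and replicate 3 highest, yet all were far below the lowest day 0 pool, a fall of 2.86-fold (log2 −1.52 ± 0.11, adjusted p = 3.78e-06). AT5G52660, listed as a clock gene and carrying only a locus tag in the tables, read 307, 282 and 303 on day 0 and 153, 166 and 163 on day 2 and fell 1.85-fold (log2 −0.89 ± 0.07, adjusted p = 1.03e-05). AT1G69570 was at log2 −0.34 and did not pass. GI transcript is known to cycle over the day, and the hours at which the pools were taken are not given in the labels.

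Among genes of the floral transition, 9 of 32 were measured, with a median of 0.23. Of these 3 rose (33.3%) and none fell, against 10.8% and 9.33% of all genes. AGL24 (AT4G24540), a MADS-box factor that promotes flowering, read 60.7, 60.8 and 70.4 on day 0 and 209.6, 185 and 213 on day 2, 3.17-fold higher (log2 1.66 ± 0.09, adjusted p = 3.11e-07). ATC (AT2G27550), a relative of TFL1 and the florigen FT that delays flowering, read 280.1, 191 and 221 on day 0 and 867, 885 and 996 on day 2, 4.01-fold higher (log2 2.00 ± 0.19, adjusted p = 2.18e-05). All day 2 pools of both genes stood at more than 2 times the highest day 0 pool, so a promoter and a repressor of flowering rose together. FD (AT4G35900), the bZIP partner of florigen at the shoot tip, read 192, 169 and 179.5 on day 0 and 220.3, 232 and 215 on day 2 and was 1.24-fold higher (log2 0.31 ± 0.10, adjusted p = 0.0445). Its call ended in a fit of the 6 arrays alone (0.0599) and without day 0 replicates 2 or 3 or day 2 replicates 1, 2 or 3 (0.0732 to 0.151). The other 6 members, AGL71 (0.36), AGL72 (0.23), SMZ (0.17), AGL19 (0.14), SNZ (0.01) and AGL42 (−0.07), did not pass. AGL24 stood out among MADS-box genes as well. Of 67 measured, only 2.99% rose and 1.49% fell, against 10.8% and 9.33% of all genes. AGL24 rose along with AGL80 (log2 0.30, adjusted p = 0.0378) and AGL30 fell (log2 −0.24, adjusted p = 0.0204). Both calls ended in refits, for AGL80 in a fit of the 6 arrays alone (0.15) and without day 0 replicates 1 or 2 or day 2 replicates 2 or 3 (0.0588 to 0.143) and for AGL30 with each array centred on its median (0.0793), in a fit of the 6 arrays alone (0.0975) and without day 0 replicates 2 or 3 or day 2 replicates 2 or 3 (0.0516 to 0.0831).

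Auxin-responsive genes rose in 2 (22.2%) of 9 measured members of 34 listed, and none fell, against 10.8% and 9.33% of all genes. GH3.3 (AT2G23170), an enzyme that ties auxin to amino acids and is itself induced by auxin, read 45.4, 39.4 and 39.5 on day 0 and 199, 163 and 172 on day 2. The day 2 pools were all above 3 times the highest day 0 pool, and the difference was 4.29-fold (log2 2.10 ± 0.11, adjusted p = 3.11e-07), the largest rise among genes with a symbol. WES1 (AT4G27260), also called GH3.5, read 125, 161 and 136 on day 0 and 205, 199.8 and 210.2 on day 2 and was 1.47-fold higher (log2 0.55 ± 0.11, adjusted p = 0.00401). GH3.1 (log2 0.58), GH3.4 (−0.28), LBD16 (0.32), LBD29 (0.08), IAA20 (0.44), IAA29 (0.23) and IAA30 (−0.67) did not pass, and the median of the 9 was 0.32. LBD16 was called higher in 3 of 11 refits. Of 2 cytokinin genes ARR15 (AT1G74890), a response regulator induced by cytokinin, read 379.7, 458 and 577 on day 0 and 648, 718 and 737 on day 2, 1.51-fold higher (log2 0.59 ± 0.16, adjusted p = 0.0214). The call of ARR15 ended in a fit of the 6 arrays alone (0.0691) and without day 0 replicates 1 or 2 or day 2 replicates 2 or 3 (0.0612 to 0.0813). RR16 was at log2 −0.22. All 4 measured gibberellin genes, the receptors GID1A (−0.14), GID1B (0.10) and GID1C (−0.15) and the F-box gene SLY1 (0.23), did not pass the limma test, and none of these had an adjusted p below 0.191.

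**Figure D3:**
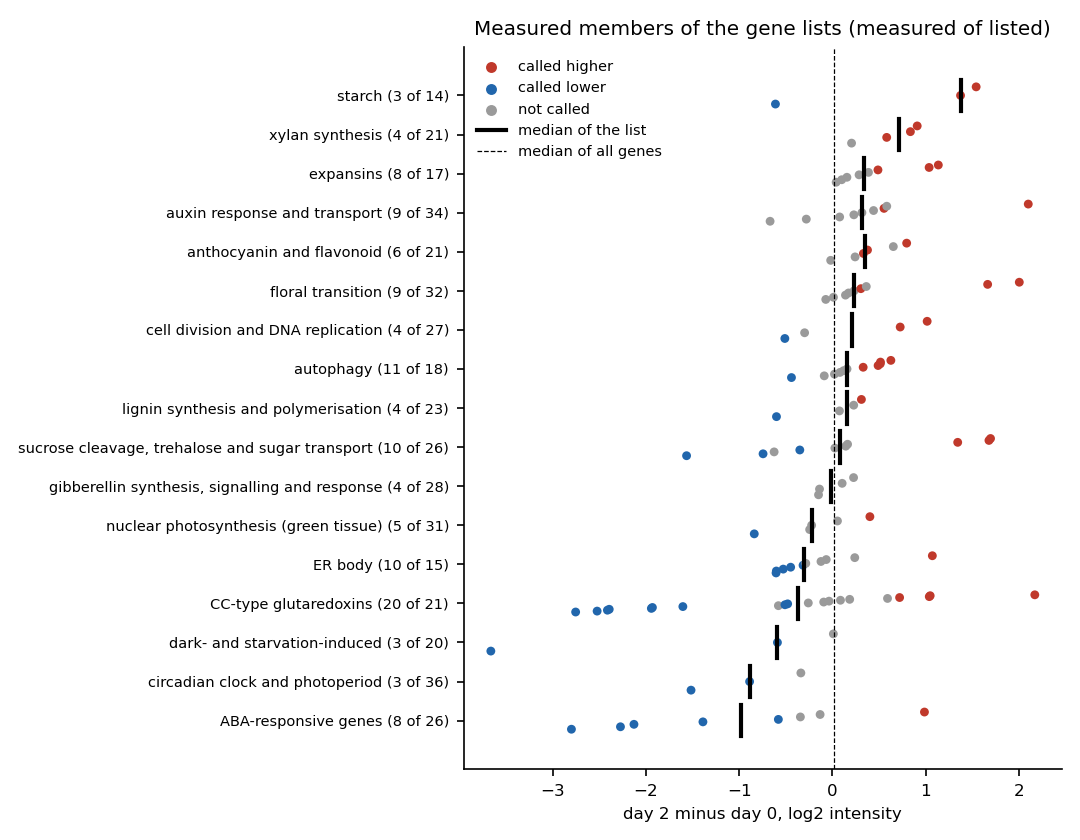
Day 2 minus day 0 log2 intensity of every measured member of 17 gene lists, with red for called higher, blue for called lower and grey for not called. Vertical bars mark the median of each list, from 1.37 for starch to −0.98 for ABA-responsive genes, and the dashed line marks the median of all 16548 genes at 0.02.

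Cell division genes were few. AUR1 (AT4G32830), an Aurora kinase of mitosis, read 552, 552 and 491 on day 0 and 1132, 999 and 1095 on day 2, 2.02-fold higher (log2 1.02 ± 0.10, adjusted p = 4.47e-05). AUR2 (AT2G25880), its close relative, read 179, 198 and 196 on day 0 and 289, 305 and 356 on day 2, 1.65-fold higher (log2 0.73 ± 0.10, adjusted p = 0.000446). PRL (AT4G02060), also called MCM7, a subunit of the helicase that opens DNA for replication, read 821, 801 and 821 on day 0 and 557, 576 and 582 on day 2 and fell 1.42-fold (log2 −0.51 ± 0.09, adjusted p = 0.00247). AUR3, the third Aurora kinase, was at log2 −0.30 and did not pass (adjusted p = 0.0578), but was called lower with an intensity trend in the variance (0.0391) and without dim probe sets (0.0241). Of 27 listed members 4 were measured, and of these 2 rose and 1 fell, against 10.8% and 9.33% of all genes. HTR12 (AT1G01370), the histone H3 of centromeres, read 311, 289 and 305 on day 0 and 349, 401 and 381 on day 2, 1.25-fold higher (log2 0.32 ± 0.08, adjusted p = 0.0109), a call that ended in a fit of the 6 arrays alone (0.059). Of 9 tubulin genes and relatives by name, TUB7 rose (log2 0.56 ± 0.11, adjusted p = 0.00368) and TUB5 fell (log2 −0.65 ± 0.12, adjusted p = 0.00257). TUB6 rose by log2 0.20 (adjusted p = 0.0405), a call that ended with cyclic loess (0.051), in a fit of the 6 arrays alone (0.147) and without day 0 replicates 1 or 3 or day 2 replicates 1, 2 or 3 (0.0641 to 0.132).

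A wide split was seen within the list of CC-type glutaredoxins, small redox proteins particular to land plants. Of 21 listed 20 were measured, and 9 fell (45%), 4 rose (20%) and 7 did not pass, with a median of −0.37. Of all genes 9.33% fell and 10.8% rose. ROXY1, ROXY2 and GRX480 are glutaredoxins by their symbols, and the other 17 carry only a locus tag in the tables, so their place on the list rests on general knowledge. AT4G15700 read 903, 1044 and 886 on day 0 and 229, 166 and 151 on day 2. AT4G15680 read 179, 173 and 162 on day 0 and 31.7, 29.0 and 36.0 on day 2. AT1G03020 read 526, 668 and 733 on day 0 and 159, 166 and 173 on day 2. AT4G15660 read 157, 219 and 203 on day 0 and 42.6, 30.8 and 27.9 on day 2. All day 2 pools of these lay far below the day 0 pools, with falls of 5.25-fold (log2 −2.39 ± 0.16, adjusted p = 1.39e-06), 5.33-fold (log2 −2.41 ± 0.15, adjusted p = 8.36e-07), 3.84-fold (log2 −1.94 ± 0.15, adjusted p = 4.57e-06) and 5.75-fold (log2 −2.52 ± 0.25, adjusted p = 3.61e-05). AT4G15670 and AT4G15690 fell as well (log2 −1.93 and −1.60). These 5 loci of chromosome 4 have consecutive locus tags, and probes that also bind a similar neighbour were not tested for. AT3G62950 fell (log2 −2.75 ± 0.32, adjusted p = 0.000108), reading 34.9, 66.7 and 19.4 on day 0 and 5.20, 4.89 and 5.81 on day 2, with day 0 pools that differed more than 3-fold among themselves. ROXY2 (−0.48) and AT5G18600 (−0.51) also fell, and their calls ended, for ROXY2 without day 0 replicate 2 or day 2 replicate 3 (0.0647 to 0.0746) and for AT5G18600 with each array centred on its median (0.0822), in a fit of the 6 arrays alone (0.144), with an intensity trend in the variance (0.0637) and without day 0 replicates 2 or 3 or day 2 replicates 2 or 3 (0.051 to 0.183). AT4G15670, AT4G15690, ROXY2 and AT5G18600 were named after their values were seen.

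Against these falls stood AT4G33040, which read 24.7, 27.1 and 24.8 on day 0 and 114, 113 and 117 on day 2 and was 4.50-fold higher (log2 2.17 ± 0.11, adjusted p = 2.98e-07), with close pools on both days. AT5G11930 (459, 562 and 669 on day 0 and 1118, 1115 and 1201 on day 2) was 2.05-fold higher (log2 1.04 ± 0.15, adjusted p = 0.000399). AT2G30540 (27.9, 30.9 and 25.0 on day 0 and 43.4, 58.0 and 75.7 on day 2) and AT2G47870 (53.5, 49.4 and 49.7 on day 0 and 77.9, 69.5 and 108 on day 2) rose 2.07-fold (log2 1.05 ± 0.23, adjusted p = 0.0063) and 1.65-fold (log2 0.72 ± 0.15, adjusted p = 0.00435). None of these overlapped between the days. Glutaredoxins of another class that are named in the tables moved less: GRXC1 rose 1.43-fold (log2 0.52 ± 0.08, adjusted p = 0.000492) and GRXC2 1.37-fold (log2 0.46 ± 0.11, adjusted p = 0.0103), and GrxC5 was at log2 −0.09.

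The measured autophagy genes moved by smaller steps, mostly upwards. Of 11 measured among 18 listed, 5 rose (45.5%) and 1 fell (9.09%), at a median of 0.16. Of all genes 10.8% rose and 9.33% fell. All measured members but ATG3 and AT3G61960 encode ATG8 proteins, which are tied to the autophagosome membrane. The risers were all ATG8 genes, as were nearly all genes measured, so the count says little about other autophagy genes. APG8A (AT4G21980) read 98.5, 93.0 and 79.8 on day 0 and 122, 138 and 159 on day 2, 1.54-fold higher (log2 0.63 ± 0.12, adjusted p = 0.00278). ATG8D (AT2G05630) read 114, 108 and 108 on day 0 and 149.9, 161 and 161 on day 2, 1.43-fold higher (log2 0.52 ± 0.07, adjusted p = 0.000236). ATG8G (AT3G60640) read 362, 378 and 362 on day 0 and 474, 587 and 517 on day 2, 1.43-fold higher (log2 0.51 ± 0.10, adjusted p = 0.003). APG8H (AT3G15580; log2 0.49 ± 0.08, adjusted p = 0.00127) and ATG8B (AT4G04620; log2 0.33 ± 0.06, adjusted p = 0.00259) also rose, and no member that rose overlapped between the days. ATG8E (AT2G45170) was the exception, at 84.7, 97.2 and 78.8 on day 0 and 51.7, 66.1 and 76.3 on day 2, a fall of 1.36-fold (log2 −0.44 ± 0.14, adjusted p = 0.0412) with the day 2 replicate 3 pool just below the day 0 pools. That call ended with each array centred on its median (0.0591), with cyclic loess (0.0512), in a fit of the 6 arrays alone (0.144) and without day 0 replicates 1 or 2 or day 2 replicates 1 or 2 (0.0739 to 0.152). ATG8C (−0.09), ATG8F (0.08), ATG8H (0.16), ATG3 (0.02) and AT3G61960 (0.12) did not pass. ATG8H is AT3G06420, a different gene from APG8H, and was called higher in 1 of 12 refits.

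ER bodies are stores of beta-glucosidases in the endoplasmic reticulum that defend roots and hypocotyls of crucifers. Of 10 measured (of 15 listed) 5 fell (50%) and 1 rose (10%), against 9.33% and 10.8% of all genes, with a median of −0.30. PYK10 (AT3G09260), the main beta-glucosidase of ER bodies, was among the brightest genes, read 9508, 9436 and 9421 on day 0 and 7844, 7482 and 7482 on day 2 and fell 1.24-fold (log2 −0.31 ± 0.06, adjusted p = 0.00324). NAI2 (AT3G15950), needed to form the bodies, read 2783, 3003 and 2945 on day 0 and 2181, 2121 and 2096 on day 2 and fell 1.36-fold (log2 −0.45 ± 0.08, adjusted p = 0.00273). For both, every day 2 pool was below every day 0 pool by a margin wider than the spread within either day. Jacalin-related lectins, which form complexes with PYK10, went both ways. JAL22 (AT2G39310), JAL33 (AT3G16450) and JAL34 (AT3G16460) fell (log2 −0.60, adjusted p = 0.000627; log2 −0.60, adjusted p = 0.00097; log2 −0.53, adjusted p = 0.0059). JAL23 (AT2G39330) read 963, 957 and 1293 on day 0 and 2118, 2126 and 2457 on day 2 and rose 2.10-fold (log2 1.07 ± 0.17, adjusted p = 0.000913). JAL31 (−0.29), NAI1 (−0.07), the factor that switches these genes on, BGLU21 (−0.12) and BGLU22 (0.24) did not pass. JAL31 was called lower in 2 of 11 refits.

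**Figure D4:**
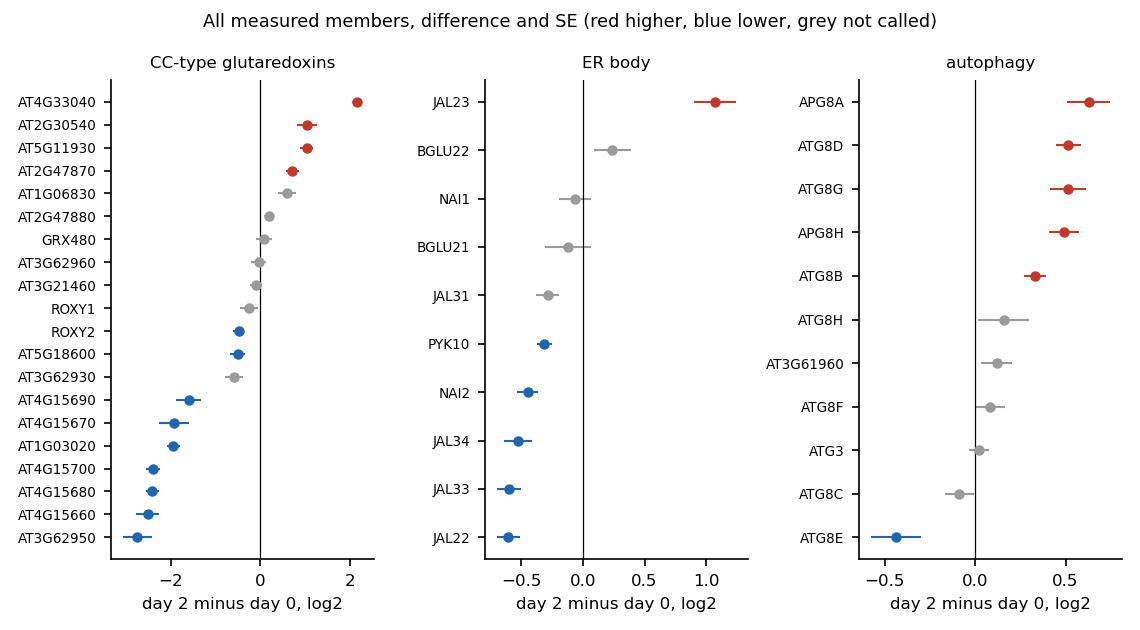
Day 2 minus day 0 log2 intensity with its SE for all measured members of 3 lists, each on its own axis, with red for called higher, blue for called lower and grey for not called. The glutaredoxin list spans −2.75 to 2.17, whereas the autophagy genes lie between −0.44 and 0.63.

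Of 6 measured anthocyanin and flavonoid genes (of 21 listed) 3 rose, against 10.8% of all genes, at a median of 0.35. AT5MAT (AT3G29590), which adds malonyl groups to anthocyanins, read 701, 680.5 and 718 on day 0 and 1266, 1163 and 1219 on day 2 and rose 1.74-fold (log2 0.80 ± 0.07, adjusted p = 1.15e-05). AT1G03940 (log2 0.33 ± 0.08, adjusted p = 0.0151) and AT4G14090 (log2 0.38 ± 0.12, adjusted p = 0.0394), listed as anthocyanin genes and named by locus tag in the tables, also rose. Their calls ended, for AT1G03940 in a fit of the 6 arrays alone (0.0531) and without day 0 replicate 2 or day 2 replicate 3 (0.0562 to 0.0639) and for AT4G14090 in a fit of the 6 arrays alone (0.0571) and without day 0 replicates 1 or 2 or day 2 replicates 1, 2 or 3 (0.0554 to 0.138). UF3GT (log2 0.24) and UGT78D2 (0.65), both flavonoid glycosyltransferases, and DFR (−0.02), an earlier step, did not pass. UF3GT was called higher in 3 of 12 refits and UGT78D2 in 1 of 11.

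Photosynthesis genes did not move together. LHCB4.2 (AT3G08940), an antenna protein of photosystem II, read 413, 490.4 and 510.0 on day 0 and 216, 263 and 317 on day 2 and fell 1.79-fold (log2 −0.84 ± 0.15, adjusted p = 0.00216). LHB1B2 (AT2G34420), another antenna gene, read 1489, 1577 and 1724 on day 0 and 640.4, 886 and 1143 on day 2 and fell 1.84-fold (log2 −0.88 ± 0.21, adjusted p = 0.0111). In both, day 2 replicate 1 was the lowest pool and day 2 replicate 3 was still below every day 0 pool. LHCB4.3, also an antenna gene, rose (log2 0.41, adjusted p = 0.0347), a call that ended in a fit of the 6 arrays alone (0.0627), with an intensity trend in the variance (0.0557) and without day 0 replicates 1 or 3 or day 2 replicates 1, 2 or 3 (0.0726 to 0.134). Of 6 measured genes with a photosystem or light-harvesting name, 1 rose and 2 fell, against 10.8% and 9.33% of all genes. SBPASE (AT3G55800), an enzyme of the Calvin cycle, read 219.8, 225 and 227 on day 0 and 295, 293 and 299 on day 2 and rose 1.32-fold (log2 0.40 ± 0.10, adjusted p = 0.0131), while LHCB4.1 (−0.22), RCA (−0.24) and PRK (0.05) did not pass. Of the 5 measured genes in the nuclear photosynthesis list, therefore, 1 rose and 1 fell, against the same shares of all genes, at a median of −0.22. RCA was called lower in 2 of 12 refits. Plastid-encoded genes changed little: of 63 measured, 8 rose (12.7%) and 2 fell (3.17%), against 10.8% and 9.33% of all genes. The plastid-encoded genes had a median of 0.05, with all differences between −0.24 and 0.39. The smallest adjusted p among them was that of ndhJ, a subunit of the plastid NDH complex (log2 0.39 ± 0.06, adjusted p = 0.00117), followed by rps2 of the plastid ribosome (log2 0.31 ± 0.06, adjusted p = 0.00234). The genes that fell were petL (log2 −0.24, adjusted p = 0.0212) and psaC (log2 −0.22, adjusted p = 0.0168). Their calls ended, for petL with each array centred on its median (0.0568), in a fit of the 6 arrays alone (0.123) and without day 0 replicates 2 or 3 or day 2 replicates 1 or 2 (0.0528 to 0.0909) and for psaC with each array centred on its median (0.0665) and in a fit of the 6 arrays alone (0.071). The count called higher was 19 with each array centred on its median, 20 with an intensity trend in the variance, and between 2 and 4 when any 1 of the 6 arrays was left out.

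Transcription factor genes beyond those lists included a pair of bZIP genes that changed in opposite directions. bZIP48 (AT2G04038) read 60.4, 100.4 and 108 on day 0 and 16.6, 11.3 and 14.7 on day 2 and fell 6.20-fold (log2 −2.63 ± 0.23, adjusted p = 1.56e-05). bZIP44 (AT1G75390), which is known for control of its translation by sucrose, read 61.5, 58.6 and 63.9 on day 0 and 163, 139 and 110.2 on day 2 and rose 2.22-fold (log2 1.15 ± 0.12, adjusted p = 5.81e-05). Of 23 measured genes that carry bZIP in their symbol or name, which leaves out EEL and FD, 4 rose (17.4%) and 3 fell (13.0%). Of all genes 10.8% rose and 9.33% fell. The other called bZIP genes were bZIP52 (log2 0.50), bZIP58 (0.49) and bZIP19 (0.24) upwards and BZIP24 (−1.18) and AT4G38900 (−0.26) downwards. Some of them were named after their values were seen. The calls of bZIP58 and bZIP19 ended in a fit of the 6 arrays alone (0.0734 and 0.0707), and that of AT4G38900 with each array centred on its median (0.0845), in a fit of the 6 arrays alone (0.0717) and without day 0 replicates 1 or 2 or day 2 replicates 1 or 2 (0.0698 to 0.0901). TINY2 (AT5G11590), an AP2/ERF factor, read 211, 218 and 233 on day 0 and 72.8, 74.3 and 89.1 on day 2 and fell 2.81-fold (log2 −1.49 ± 0.11, adjusted p = 3.70e-06). AT5G61590, named Decrease Wax Biosynthesis in the tables, a repressor of cuticular wax genes, read 208, 295 and 269.8 on day 0 and 49.9, 60.8 and 60.4 on day 2 and fell 4.48-fold (log2 −2.17 ± 0.25, adjusted p = 9.53e-05). AT4G31620, named reproductive meristem 36, read 399.9, 438 and 463 on day 0 and 136, 143 and 149.9 on day 2 and fell 3.03-fold (log2 −1.60 ± 0.10, adjusted p = 8.29e-07). In LSH5 (AT5G58500), of the LIGHT SENSITIVE HYPOCOTYLS family, the change was upwards: it read 313, 291 and 346 on day 0 and 845, 926 and 971 on day 2, 2.89-fold higher (log2 1.53 ± 0.10, adjusted p = 1.39e-06), without overlap. Among the others, the iron-related bHLH genes bHLH115 (log2 0.37 ± 0.06, adjusted p = 0.00148) and ILR3 (log2 0.29 ± 0.06, adjusted p = 0.00415) rose by small and even steps.

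The remaining large changes include those of enzymes, transporters and secreted peptides. CHX16 (AT1G64170), a cation/proton exchanger, read 505, 605 and 549 on day 0 and 164, 155 and 164 on day 2 and fell 3.43-fold (log2 −1.78 ± 0.10, adjusted p = 6.12e-07). CCL (AT3G26740), named CCR-like in the tables, read 631, 776 and 813 on day 0 and 99.5, 175 and 183 on day 2 and fell 4.99-fold (log2 −2.32 ± 0.27, adjusted p = 0.000105), with replicate 1 lowest on both days. That name does not place CCL in any of these classes. SBT4.12 (AT5G59090), a subtilase, fell 3.83-fold (log2 −1.94 ± 0.25, adjusted p = 0.000197) and CYP71B19 (AT3G26170), a cytochrome P450, 3.02-fold (log2 −1.59 ± 0.22, adjusted p = 0.00035). Of 26 measured genes with a P450 symbol or name, 7.69% rose and 11.5% fell, close to the 10.8% and 9.33% of all genes. CYP71B19 fell along with CYP71B23 (log2 −0.52) and CYP78A9 (−0.70), and CYP71B28 (0.35) and CYP71B6 (0.34) rose. CYP71B28 and CYP71B6 were named after their values were seen. The calls of CYP71B23 and of both risers ended, for CYP71B23 in a fit of the 6 arrays alone (0.0627), for CYP71B28 in a fit of the 6 arrays alone (0.0773) and for CYP71B6 in a fit of the 6 arrays alone (0.0628) and without day 0 replicate 2 or day 2 replicates 2 or 3 (0.0584 to 0.0914). Of the enzymes that rose, FMO (AT1G12200), a flavin monooxygenase, read 356, 264 and 276 on day 0 and 646, 754 and 854 on day 2, 2.52-fold higher (log2 1.33 ± 0.13, adjusted p = 3.21e-05). SEH (AT2G26740), a soluble epoxide hydrolase, read 112, 86.3 and 102 on day 0 and 223, 252 and 280.2 on day 2, 2.52-fold higher (log2 1.33 ± 0.13, adjusted p = 2.91e-05). HL (AT5G54390), a HAL2-like phosphatase, rose by less than 2-fold but with little spread, at 316, 314 and 336 on day 0 and 601, 603 and 644 on day 2 (log2 0.94 ± 0.06, adjusted p = 1.39e-06).

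Genes of small peptides moved in both directions. RALFL32 (AT4G14010), of the RALF peptides that act on cell expansion through receptor kinases, read 228, 227 and 198 on day 0 and 569, 506 and 654 on day 2, 2.64-fold higher (log2 1.40 ± 0.14, adjusted p = 3.61e-05). ROT4 (AT2G36985) and RTFL7 (AT3G55515) belong to the ROTUNDIFOLIA-like peptides, of which ROT4 restricts cell number along the leaf when overproduced. ROT4 read 553, 493 and 367 on day 0 and 205, 128 and 146 on day 2 and fell 2.96-fold (log2 −1.57 ± 0.22, adjusted p = 0.000435). RTFL7 read 786, 807 and 877 on day 0 and 319, 335 and 415 on day 2 and fell 2.32-fold (log2 −1.22 ± 0.16, adjusted p = 0.000284). The RALF gene thus rose, and the pair of ROTUNDIFOLIA-like genes fell.

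The largest changes of all belonged to genes for which the tables give only a locus tag. AT1G08440 read 29.4, 46.7 and 67.8 on day 0 and 462, 511 and 550.0 on day 2, 11.2-fold higher (log2 3.48 ± 0.25, adjusted p = 3.23e-06), with uneven day 0 pools. AT5G66816 read 21.4, 18.3 and 22.4 on day 0 and 233, 209 and 198 on day 2, 10.3-fold higher (log2 3.37 ± 0.12, adjusted p = 2.17e-08). AT3G50610 read 17.9, 18.1 and 16.0 on day 0 and 99.4, 134 and 97.9 on day 2, 6.32-fold higher (log2 2.66 ± 0.19, adjusted p = 2.55e-06). Downwards, AT5G59080 read 458, 488 and 371 on day 0 and 43.7, 45.9 and 34.5 on day 2, a fall of 10.6-fold (log2 −3.41 ± 0.16, adjusted p = 2.60e-07). AT1G56300 read 1628, 1548 and 1531 on day 0 and 183, 194 and 208 on day 2, a fall of 8.05-fold (log2 −3.01 ± 0.07, adjusted p = 5.89e-10) with the smallest adjusted p of all genes. Together with AT3G15450 these were the 3 largest rises and the 3 largest falls among all 16548 genes.

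Day 2 was then placed between its neighbours for the named genes, with the same fit and the same adjustment. These comparisons share the day 2 arrays, and their background was 2506 genes called between day 1 and day 2 (15.1%), 950 between day 2 and day 4 (5.74%) and 4527 between day 2 and day 10 (27.4%). Some genes stood at or below their day 0 level on day 1 and higher on day 2. The geometric mean intensity of SWEET4 on days 0, 1, 2, 4 and 10 was 24.8, 22.0, 63.0, 107 and 26.1, and its step from day 1 to day 2 was log2 1.52 ± 0.23, adjusted p = 0.00116. That of RALFL32 was 217, 201, 573, 495 and 304 (log2 1.51 ± 0.14, adjusted p = 0.000121), and that of IRX15 30.3, 24.0, 57.0, 63.6 and 98.0 (log2 1.25 ± 0.09, adjusted p = 4.39e-05). FMO (296, 352, 746, 956 and 1624) and JRG21 (87.2, 108, 214, 231 and 23.9), named jasmonate-regulated gene 21, were also higher on day 2 than on day 1 (log2 1.09 ± 0.13, adjusted p = 0.000346 and log2 0.99 ± 0.20, adjusted p = 0.00665). GH3.3 stood between its day 0 and day 2 levels on day 1, at 41.4, 69.3, 177, 144 and 44.8 over the 5 days, and its step from day 1 was log2 1.35 ± 0.11, adjusted p = 7.96e-05. HIS1-3 stepped up by log2 1.00 ± 0.27, adjusted p = 0.0285. LCR22 (AT4G29280), a cysteine-rich peptide gene, read only 4.70, 5.29 and 5.75 on day 0 and 15.9, 7.71 and 10.3 on day 2, and its call against day 0 ended in a fit of the 6 arrays alone (0.0558).

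Other genes fell from day 1 to day 2. SAE1A (AT4G24940), a subunit of the SUMO-activating enzyme, had geometric means of 551, 617, 309, 366 and 460.2 (log2 −1.0 ± 0.09, adjusted p = 0.000111), ALDH11A3 (AT2G24270), an aldehyde dehydrogenase, of 556, 546, 259.7, 127 and 40.4 (log2 −1.07 ± 0.22, adjusted p = 0.00593). BZIP24 (AT3G51960) had geometric means of 94.1, 87.1, 41.5, 45.1 and 50.0 (log2 −1.07 ± 0.16, adjusted p = 0.00127). SAE1A was back between its day 0 and day 2 levels by day 10, while ALDH11A3 was lower on day 10 than on day 2 (log2 −2.69 ± 0.22, adjusted p = 2.64e-06). NET3C (AT2G47920), which links actin to the endoplasmic reticulum at the plasma membrane, and AT2G35310, named reproductive meristem 23, were highest on day 1, at 111, 162, 70.2, 56.5 and 50.2 and 44.4, 66.2, 32.5, 34.8 and 35.8, and fell from there (log2 −1.21 ± 0.19, adjusted p = 0.00144 and log2 −1.03 ± 0.12, adjusted p = 0.000301). Their calls against day 0 ended, for NET3C without day 0 replicates 2 or 3 or day 2 replicates 1 or 3 (0.0667 to 0.102) and for AT2G35310 without day 0 replicates 1 or 3 or day 2 replicates 2 or 3 (0.0506 to 0.0731). CYP71B19, ROT4 and RTFL7 also fell between day 1 and day 2 (log2 −1.04 ± 0.22, adjusted p = 0.00763, log2 −1.02 ± 0.22, adjusted p = 0.00932 and log2 −0.97 ± 0.16, adjusted p = 0.00215).

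Later days show which day 2 levels lasted. SWEET13 had geometric means of 289, 548, 936, 1155 and 51.7 on days 0, 1, 2, 4 and 10 and was lower on day 10 than on day 2 (log2 −4.18 ± 0.14, adjusted p = 1.51e-09). ATC ran 228, 499, 914, 557 and 50.4 over the same days and was also lower on day 10 than on day 2 (log2 −4.18 ± 0.19, adjusted p = 2.38e-08). APL3 (676, 904, 1752, 2173 and 698) and APL4 (299, 524, 869, 1163 and 478) were likewise lower on day 10 than on day 2 (log2 −1.33 ± 0.13, adjusted p = 1.26e-05 and log2 −0.86 ± 0.10, adjusted p = 6.05e-05). GH3.3 on day 10 was also below its day 2 level (log2 −1.99 ± 0.11, adjusted p = 1.61e-07). GUT2 and IRX15 were higher on day 10 than on day 2, GUT2 at 709, 581, 1062, 1299 and 2359.7 (log2 1.15 ± 0.08, adjusted p = 6.29e-07 for day 10 minus day 2) and IRX15 by log2 0.78 ± 0.09, adjusted p = 4.01e-05. COR15A fell further by day 10 (8430.1, 4428, 3219.6, 3504 and 831; log2 −1.95 ± 0.10, adjusted p = 1.11e-07), and COR15B, dim from day 1 on, did not pass against day 2 (54.2, 12.5, 12.4, 11.2 and 10.9; log2 −0.18 ± 0.10, adjusted p = 0.214). LTI30 was higher on day 4 than on day 2 (log2 1.12 ± 0.14, adjusted p = 0.000855) and AUR1 lower (log2 −0.88 ± 0.10, adjusted p = 0.000726). AT5G61590 ran 255, 68.1, 56.8, 99.7 and 513 and stood far above day 2 on day 10 (log2 3.17 ± 0.25, adjusted p = 2.18e-06).

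**Figure D5:**
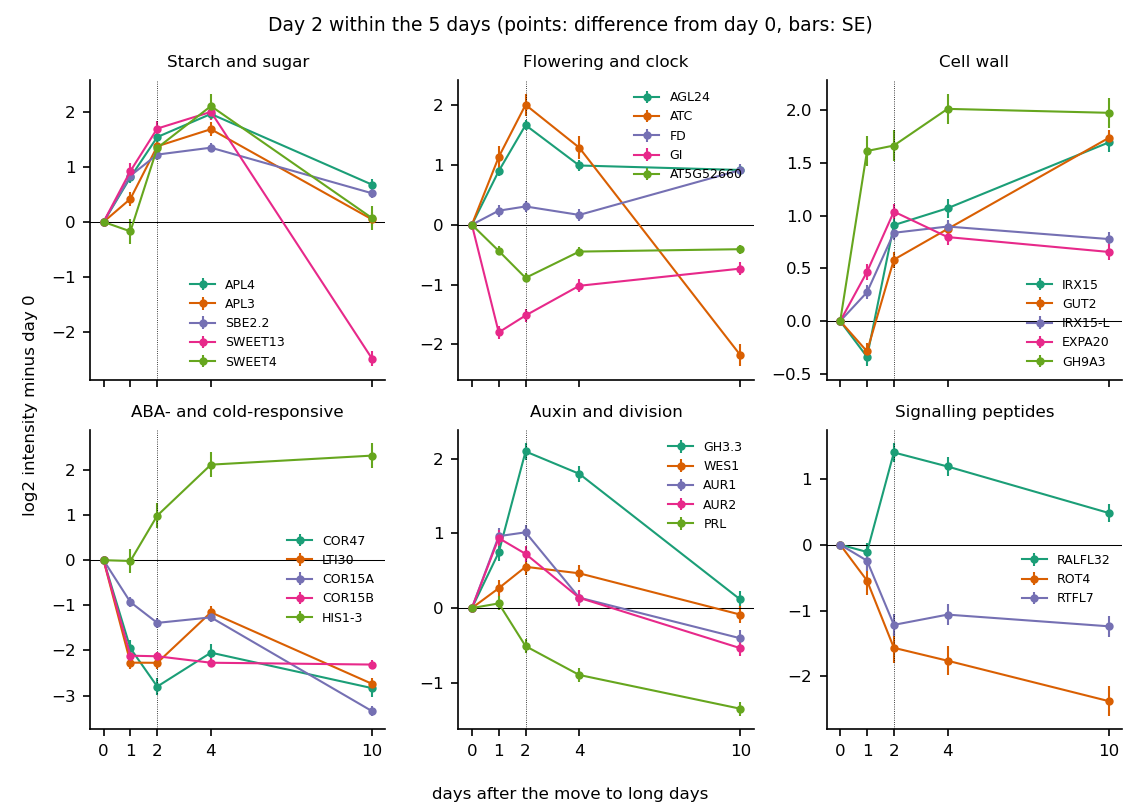
Log2 intensity minus day 0 on days 0, 1, 2, 4 and 10 after the move to long days for 28 genes in 6 panels, with the SE as bars and a dotted line at day 2. On day 2 the starch, sugar, AGL24, ATC and GH3.3 curves are high, FD is slightly above day 0, and GI and AT5G52660 are below it. By day 10 SWEET13 and ATC lie below day 0 while IRX15 and GUT2 are higher than on day 2.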

How the data were processed

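RNA of pooled hypocotyls was labelled with biotin and hybridised to 1-colour arrays, 1 array per pool, 15 arrays in all. The deposited values are array intensities on a linear scale, made by the authors with RMA in Partek, per the submitters' processing notes, with versions not given in the sources used here. No further normalisation was applied. The model, in limma 3.58.1 (R 4.3.3), gave each day its own mean of log2 intensity and used all 15 arrays, so 10 degrees of freedom remained for the spread. Contrasts were adjusted by Benjamini-Hochberg over all 38408 probe sets. The number of arrays limits the precision. The steps were tested on simulated data.

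Of the probe sets, 16722 carry 1 gene in the platform annotation, 759 several and 20927 none. Symbols were matched to the RefSeq gene table, 16574 by gene ID, and for 148 genes with several probe sets the brightest on average was kept. Nothing in the labels says whether the pools came from separately grown plants, so p-values measure the spread between these pools.

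Named are the 15 largest rises and falls without overlap among annotated genes, the 3 largest in each direction without annotation, up to 6 members of a list and 3 of a family by smallest adjusted p (with any member that a small count points to), the 8 largest rises and falls from day 1 to day 2, and the 10 annotated genes of smallest adjusted p. Members and lists were chosen with earlier results of these data known, so they give no independent support. The matching of families by name was narrowed to symbols and full names after the data were seen. Lists were written by locus tag from general knowledge, and 139 of their 641 entries were measured. Alternatives were other scalings, a fit of 6 arrays, a replicate block, an intensity trend in the variance, a filter on dim probe sets, the mean over probe sets and leaving out each array.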

Additional observations from a re-analysis of the deposited data

How the results depend on the processing

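Over all 38408 probe sets, 7832 were called, and 5021 in a fit of the 6 arrays alone (2457 higher and 2564 lower against 3859 and 3973), which has fewer residual degrees of freedom. For genes the same fit called 2107 (1127 higher and 980 lower). Leaving out 1 array at a time called 5633 to 6754 probe sets, 2837 to 3281 higher and 2782 to 3581 lower, of which 257 to 314 and 572 to 749 were at least 2-fold, and 2416 to 2830 genes, 1323 to 1515 higher and 1093 to 1345 lower. Without dim probe sets, which leaves fewer to test, 341 were called at least 2-fold lower against 683. With each array centred on its median, which moved the median of all probe sets from −0.01 to 0.05 on the log2 scale, 62.9% of the called probe sets were higher against 49.3% as deposited. Replicate numbers are shared between the days, but deviations of same-numbered arrays from their group means correlated at 0.12, −0.02 and 0.11, so the numbers are not taken as pairs. With the replicate block 7198 probe sets were called. Calls that ended in that refit include those of FD, ATG8E, AT2G44060, TUB6, AT4G14090, AT5G18600, XTH32 and LHCB4.3 (adjusted p 0.0503 to 0.0763). Of 136 named genes that were called, none changed sign under any of these alternatives, and the call ended for 6 with median centring, 4 with cyclic loess, 25 with the 6 arrays alone, 9 with the block (not listed among the refits beside single genes), 2 with the variance trend and 14 to 21 without 1 array. Among the named genes that were not called, a call was gained by 7 with median centring, 3 with cyclic loess and 1 with the 6 arrays alone. The counts gained were 2 with the block, 6 with the variance trend, 8 without dim probe sets and 2 to 3 without 1 array. Brightness limits the calls, as 3.26% of genes in the dimmest of 4 equal classes were called.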
